A study of Mus musculus with 2 samples.

Results

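Cluster 19 is a group of natural killer (NK) cells from mouse tumours, taken from the cell type names and cluster numbers that the authors deposited with the cells. Its members are the entries named NK in cluster 19 whose barcode held at least 1000 mouse-gene UMIs in the count matrix. A UMI (unique molecular identifier) marks 1 counted RNA molecule. By this rule 212 cells were found, of 728 NK cells and 8767 annotated cells of the library. Of these, 210 were used: 1 was left out because its leading hashtag belonged to mice of another treatment, and 1 because its barcode was listed more than once. No cell of cluster 19 carried another cell type name. The deposited cell list names 386 cells of the cluster in all, and the other 174 enter only the shares of NK cells given below.

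The cells came from MC38 tumours, a mouse colon carcinoma line of which 2000000 cells had been implanted under the skin of mice whose Fc gamma receptors are human. Animals had received 2 injections, 3 days apart, of 100 µg antibody to mouse GITR (Tnfrsf18), a costimulatory receptor of the tumour necrosis factor receptor family, and CD45+ cells were sorted 4 days after treatment. All antibodies were human IgG1. N297A is labelled as an agonist without Fc receptor binding, GA-aFuc as an agonist with enhanced Fc receptor binding, and GITR/Syn GA-aFuc as a non-agonist with enhanced Fc receptor binding; the sources used here do not spell out Syn. The control mice are called both PBS and Untreated. The library held 6 hashtag antibodies, each taken here as 1 mouse; the labels name 6 mice without pairing them with hashtags and state 3 mice per treatment. Of the 6, 2 were Untreated, 2 received N297A, 1 received GA-aFuc and 1 GITR/Syn GA-aFuc, and the labels give neither strain nor age. Both lone mice were assumed in every test to vary like the mice of the groups with 2.

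NK cells are innate lymphocytes that kill stressed, infected or transformed cells. They release granules holding perforin and granzymes, and are steered by the balance of activating and inhibitory receptors at their surface. Interleukin 2, 12, 15 and 18 and type I interferon raise their activity, and transforming growth factor beta restrains it. Through an Fc receptor, NK cells also kill cells that are coated with antibody.

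By mouse, cluster 19 had 47 cells in Untreated replicate 1, 36 in Untreated replicate 2, 40 in each N297A mouse, 27 with GA-aFuc and 20 with GITR/Syn GA-aFuc. All series of 6 values below follow this order. The cells held a median of 5876 UMIs, with quartiles of 4924 and 7454 and a range of 2746 to 23161. The other NK cells used were 200 cells of cluster 20, 169 of cluster 26, 95 of cluster 48 and 49 of cluster 58. Their median UMIs per cell were 13251, 4293, 12444 and 22125, so cluster 19 lay between clusters 26 and 20 in depth. Levels are given as CPM, the UMIs of a gene per 1000000 mouse-gene UMIs summed over the cells of a mouse. Ratios have 5 CPM added on both sides.

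The NK label was borne out by the markers. Ncr1, an activating receptor found on nearly all NK cells, stood at 272, 265, 207, 263, 304 and 251 CPM in cluster 19, against 0.592 CPM in macrophages and 1.73 CPM in CD8 T cells. Klrb1c (NK1.1) had a mean of 432 CPM ± 107 (SD, n = 6) and Eomes, a transcription factor of the NK lineage, 177 CPM ± 56.5 (SD, n = 6). With every cell thinned to 2000 UMIs, 40.5% of cluster 19 cells held an Ncr1 UMI, 56.2% a Klrb1c UMI and 28.1% an Eomes UMI, while in macrophages thinned in the same way the shares were 0.168%, 0% and 0%. The summed level of 10 NK identity genes ran from 4617 to 5156 CPM, above the 3705 to 4367 CPM of the other NK cells of the same mice, with no overlap. The same 10 genes summed to 3001 CPM in CD8 T cells and 327 CPM in macrophages, so the sum sets NK cells less apart from CD8 T cells. Set against cluster 26 alone, 3 of the 10 had a positive mean log2 ratio, with a median of -0.34. Klrb1c had 645 CPM and Eomes 254 CPM in cluster 26.

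Markers of other cell types were present at the following levels. The summed level of 11 T cell markers ran from 169 to 314 CPM, against 295 to 664 CPM in the other NK cells and 7059 CPM in CD8 T cells. Of these 11 genes, 9 had a UMI, and Cd4 and Cd5 were at 0. A Cd3d, Cd3e or Cd3g UMI was present in 23 of 210 cells (11%), against 88 of 513 (17.2%) of the other NK cells. The summed level of 15 macrophage and monocyte genes was 1358 to 2266 CPM, against 39844 CPM in macrophages, with Fcgr1 at 0. Droplets with 10 to 100 UMIs, taken as free RNA, held 35168 CPM of the same 15 genes. Of these, C1qa, C1qb, C1qc, Apoe and Lyz2, stood in cluster 19 at 3.65% ± 0.63 (SD, n = 6) of their free-RNA level. At that mean share, free RNA can supply at most 31.1 CPM of Gzmc, 35.2 CPM of Ccl5 and 37.3 CPM of Isg15. B cell markers summed to 30.1 to 81.7 CPM with Cd79a, Pax5 and Igkc at 0, neutrophil markers to 0 to 12.6 CPM, and dendritic cell markers to 273 to 419 CPM with Flt3, Xcr1, Clec9a, Cd209a and Siglech at 0. Markers of other innate lymphocytes summed to 34.7 to 87.9 CPM with Il13, Il5, Il23r and Il22 at 0, against 33.0 to 79.4 CPM in the other NK cells and 29.8 CPM in free RNA. The 10 stroma and tumour genes summed to 134 to 269 CPM, highest in the GA-aFuc mouse, against 123 to 176 CPM in the other NK cells, 140 CPM in macrophages and 201 CPM in free RNA. Pecam1, an adhesion molecule that leukocytes also carry, made up 142 CPM of this sum on average, and Cdh5, Krt8 and Krt19 were at 0.

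The comparison of cluster 19 with the other NK cells is a description. The clusters had been made from these same genes, so no test was applied. A gene was counted when its mean ratio over the 6 mice was at least 2-fold, the direction was the same in every mouse, and the higher side reached 50 CPM. Of 3656 genes at that level, 104 were counted (2.84%), 35 higher (0.957%) and 69 lower (1.89%) in cluster 19. Against cluster 20 alone 176 of 3614 genes were counted (4.87%), 133 higher (3.68%) and 43 lower (1.19%). Against cluster 26 alone 102 of 3892 were counted (2.62%), 31 higher (0.797%) and 71 lower (1.82%).

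For Gzmc, Gzma and Ccl5 the mean level of cluster 19 lay between both neighbours. Gzmc, one of a run of near-identical granzyme genes, stood at 392, 289, 130.1, 327, 1953 and 295 CPM in cluster 19, and at 10554, 11086, 6961, 9576, 16092 and 11446 CPM in the other NK cells of the same mice. Every mouse was lower in cluster 19, by a mean log2 ratio of -4.80 ± 0.93 (SD, n = 6). The mean was 10468 CPM in cluster 20 and 65.1 CPM in cluster 26, so the cluster 19 level was below the first and above the second in 6 of 6 mice. Gzmd had 9.26 CPM in cluster 19, 820.5 CPM in the other NK cells and 4.67 CPM in cluster 26. Gzme had no UMI among the 1358292 UMIs of cluster 19, which allows up to 2.21 CPM over the 6 mice. It had 332 CPM in the other NK cells, so that the level in cluster 19 was at least 150.5-fold lower. Cluster 26 likewise had no Gzme UMI in any mouse. The GA-aFuc mouse held 1132 CPM of Gzme in its other NK cells and the other 5 mice 53.3 to 286 CPM; without that mouse the level in cluster 19 was at least 64.9-fold lower. Because Gzmc, Gzmd, Gzme and Gzmg are so alike in sequence, how reads were divided among them is uncertain.

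Gzma, the trypsin-like granzyme, ran the other way. Its level was 8372, 10283, 7980.1, 10734, 9107 and 6470.4 CPM in cluster 19, with a log2 ratio to the other NK cells of 1.07 ± 0.21 (SD, n = 6). Cluster 20 had 4119 CPM and cluster 26 had 12470.2 CPM. Gzmb, the main granzyme of killing, differed little: 2591 CPM ± 864 (SD, n = 6) in cluster 19, 2670.2 CPM ± 570.1 in cluster 20 and 2403 CPM ± 584 in cluster 26. Perforin (Prf1) had a log2 ratio of -0.22 ± 0.29 to the other NK cells. Its mean was 749 CPM in cluster 19, below cluster 20 (1016 CPM) and cluster 26 (909 CPM). Of 19 cytotoxic granule genes at 20 CPM or more, 4 were higher in 6 of 6 mice (Gzma, Nkg7, Serpinb9 and Fasl) and 5 lower (Gzmc, Gzmd, Gzme, Gzmg and Rab27a). Among all 6380 genes at that level 11.6% were higher and 8.54% lower in 6 of 6 mice, and the median log2 ratio was 0.05, against -0.19 for the list.

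Ccl5, a chemokine that draws T cells and dendritic cells, stood at 4237, 2409, 3862, 3694, 1089.5 and 590.5 CPM. This was above the 109 CPM of cluster 20 and below the 10062 CPM of cluster 26 in every mouse, with log2 ratios of 4.35 ± 0.73 and -2.20 ± 0.86 (SD, n = 6). Xcl1, the chemokine for cross-presenting dendritic cells, had 1756, 448, 2045, 723, 1307 and 704 CPM, which overlapped cluster 20 (1409 CPM ± 479) and exceeded cluster 26 (204 CPM ± 92.7) in 6 of 6 mice. Itga2 (CD49b), an integrin of circulating NK cells, had 122 CPM in cluster 19, 23.4 CPM in cluster 20 and 287 CPM in cluster 26.

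**Figure D1:**
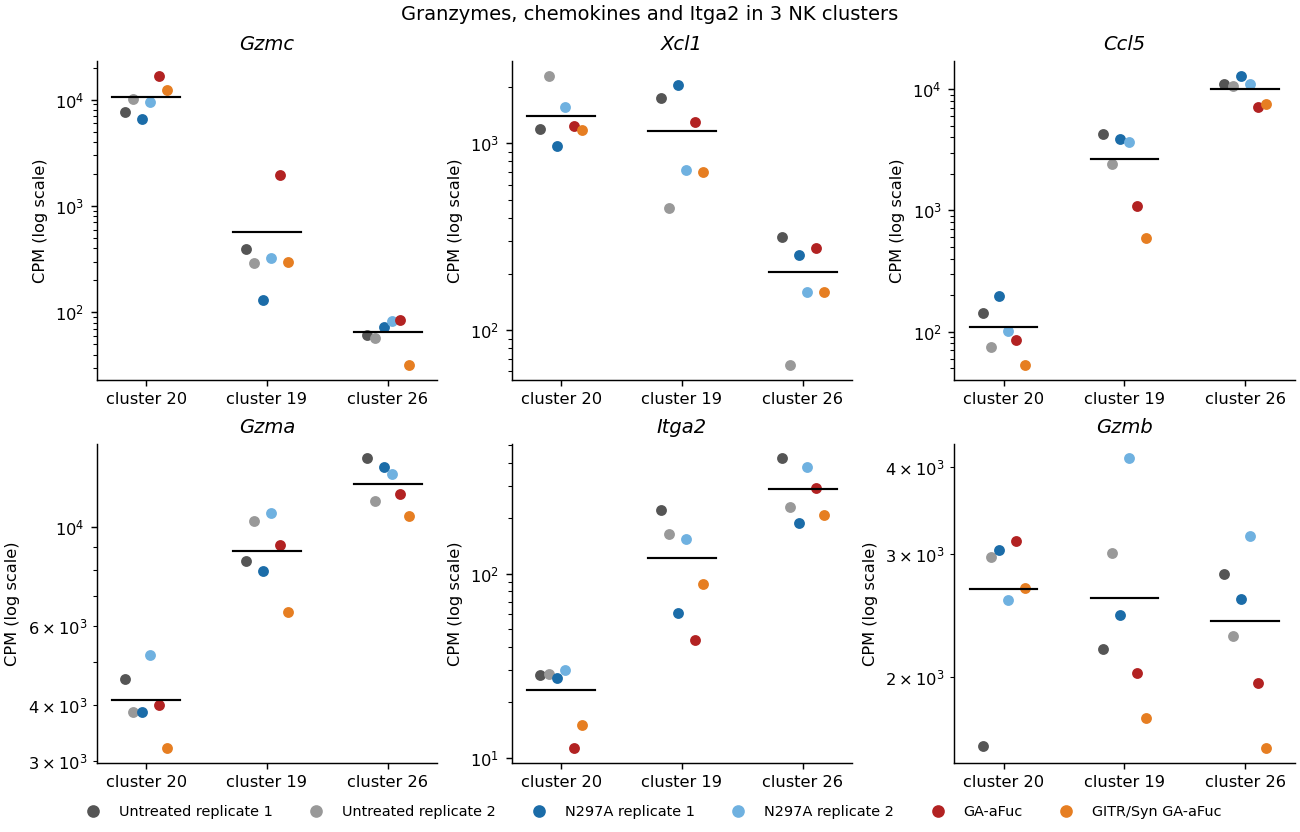
CPM on a log scale of 6 genes in clusters 20, 19 and 26, with 1 point per mouse and a bar at the mean of 6 mice. For Gzmc, Ccl5, Gzma and Itga2 the cluster 19 mean lies between the means of clusters 20 and 26, while Gzmb overlaps across the 3 clusters.

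This intermediate place held for most genes that separate both neighbours. Between clusters 26 and 20, 813 of 3954 genes (20.6%) differed at least 2-fold in the same direction in 6 of 6 mice, 596 higher in cluster 26 and 217 higher in cluster 20. The cluster 19 mean lay strictly between both for 784 of the 813 (96.4%), at or beyond the cluster 20 level for 9 and at or beyond the cluster 26 level for 20. On a scale where 0 is cluster 20 and 1 is cluster 26, the median position of cluster 19 was 0.527. It was 0.559 for genes higher in cluster 26 and 0.460 for genes higher in cluster 20.

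Type I interferon response genes were higher in cluster 19 than in the other NK cells. Type I interferon is sensed by the receptor Ifnar1/Ifnar2 and acts through a complex that holds Stat2 and Irf9 on genes such as Mx1, Isg15 and the Oas family, which block virus growth. Of 32 listed response genes, 28 reached 20 CPM, and all 28 had a positive mean ratio against the other NK cells. Of the 28, 15 were higher in 6 of 6 mice and 0 lower, with a median log2 ratio of 0.84. All genes had a median of 0.05 there, with 11.6% higher and 8.54% lower. Against cluster 20 the median was 0.96 with 17 higher in 6 of 6 mice, where all genes had a median of 0.16 and 17.0% were higher. Against cluster 26 it was 0.46 with 5 higher, where all genes had a median of -0.09 and 5.17% were higher.

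Mx1, a dynamin-like antiviral protein, stood at 49.5, 101, 106, 168, 30.4 and 37.7 CPM in cluster 19, and at 20.04, 22.9, 31.3, 12.1, 25.8 and 9.14 CPM in the other NK cells. The lowest cluster 19 value, from the GA-aFuc mouse, lay close to the highest values of the other NK cells. Ifi204, a sensor of DNA, had a log2 ratio of 1.58 ± 0.66 (SD, n = 6), Oasl1 of 1.37 ± 0.47, Oasl2 of 1.27 ± 0.63 and Trim30a of 1.02 ± 0.48. Cluster 26 lay near cluster 19 for Oasl1 (86.5 against 90.9 CPM) and for Oasl2 (55.3 against 62.1 CPM). Isg15, a ubiquitin-like protein, had 233, 318, 369.9, 482, 213 and 188 CPM in cluster 19, against 156 CPM ± 34.4 in cluster 20 and 159 CPM ± 67.2 in cluster 26. It exceeded both in 6 of 6 mice. Isg15 was also abundant in free RNA, at 1022 CPM, of which cluster 19 could have received at most the 37.3 CPM given above at the mean share.

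Summed over the 32 genes, the cluster 19 level was 3573, 4655, 4350 (rounded), 5813, 3247 and 2795 CPM, a mean of 4072 ± 1096 (SD, n = 6). In the other NK cells it was 2318 CPM ± 165, and in all 6 mice cluster 19 was above its own mouse's other NK cells. Cluster 20 had 2033 CPM ± 116, cluster 26 had 2955 CPM ± 538, and CD8 T cells had 4073 CPM ± 218. Macrophages (7482 CPM) and monocytes (10603 CPM) were higher.

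**Figure D2:**
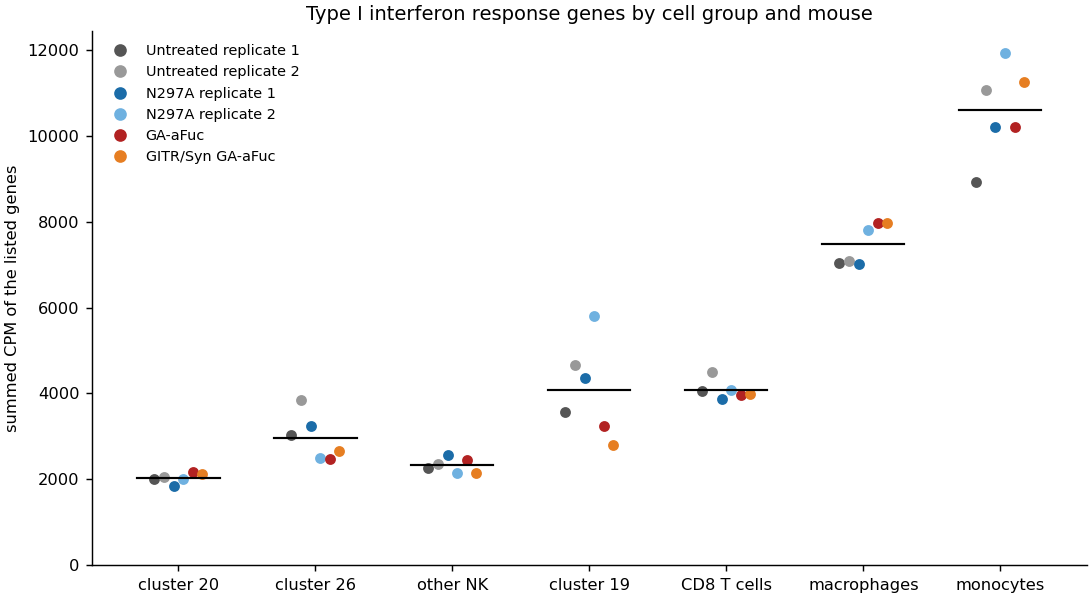
Summed CPM of 32 type I interferon response genes in 7 cell groups, with 1 point per mouse and a bar at the mean of 6 mice. Cluster 19 has a mean of 4072 CPM against 2318 CPM in the other NK cells, and its points spread from 2795 to 5813 CPM.

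Promoters of these genes were looked at because members moved together. A motif of 2 GAAA blocks with any 2 bases between them, as bound by interferon regulatory factors, was searched on both strands in the RefSeq promoters of GRCm38.p6, from 250 bases before to 50 after each gene's start; the count matrix was made with GRCm39. It was present for 12 of 20 matched list genes (60%), against 236 of 5101 genes at 20 CPM or more (4.63%). Within the list it was present for 4 of 8 genes that were higher in 6 of 6 mice and for 8 of 12 that were not. A match is a description of letters and not a bound site. Stretches of 60 bases from the promoters of Isg15, at chr4:156200850-156200909 on the minus strand, and Ifi203, at chr1:173942493-173942552 on the minus strand, show an overlapping run of 3 matches and a single match, in capitals.
Isg15: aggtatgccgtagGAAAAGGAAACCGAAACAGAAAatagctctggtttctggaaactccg
Ifi203: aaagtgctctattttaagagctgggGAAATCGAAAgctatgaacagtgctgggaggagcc
Ifi203, an interferon-inducible gene of the Ifi200 cluster, had a log2 ratio of 0.57 ± 0.26 (SD, n = 6) to the other NK cells. Another RefSeq promoter of Ifi203 held 0 matches, as did those of Irf7, Isg20, Oasl1 and Oasl2. Stat2 and each Trim30a promoter held 1.

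Relative to both neighbours at once, cluster 19 was above clusters 20 and 26 in 6 of 6 mice for 17 of 4025 genes and below both for 5. The 17 were Slfn5, Isg15, Gpr18, Osgin1, Endod1, H2-T22, Rhot1, Sp110, Samd9l, Atp10a, Mettl23, Zup1, Parp14, Ckap5, Lsm1, Ssbp4 and Pmepa1; they were picked by this pattern and get no test. Of the 17, Isg15 and Parp14 are on the type I interferon list. Pmepa1, a feedback inhibitor of transforming growth factor beta signalling, was even across mice at 343, 337, 362, 366, 339 and 295 CPM. The 5 below both were Ifitm2, Lig1, Snrpc, Gatad1 and Actg1. Ifitm2, a membrane protein that can be induced by interferon, had 39.7 CPM in cluster 19, 288 CPM in cluster 20 and 96.0 CPM in cluster 26. It went the other way from the 28 type I interferon genes compared above, and was not alone. Its relative Ifitm1 (18.6 against 293 CPM) and the interferon-inducible Ly6a (260 against 465 CPM) were also lower than in the other NK cells.

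**Figure D3:**
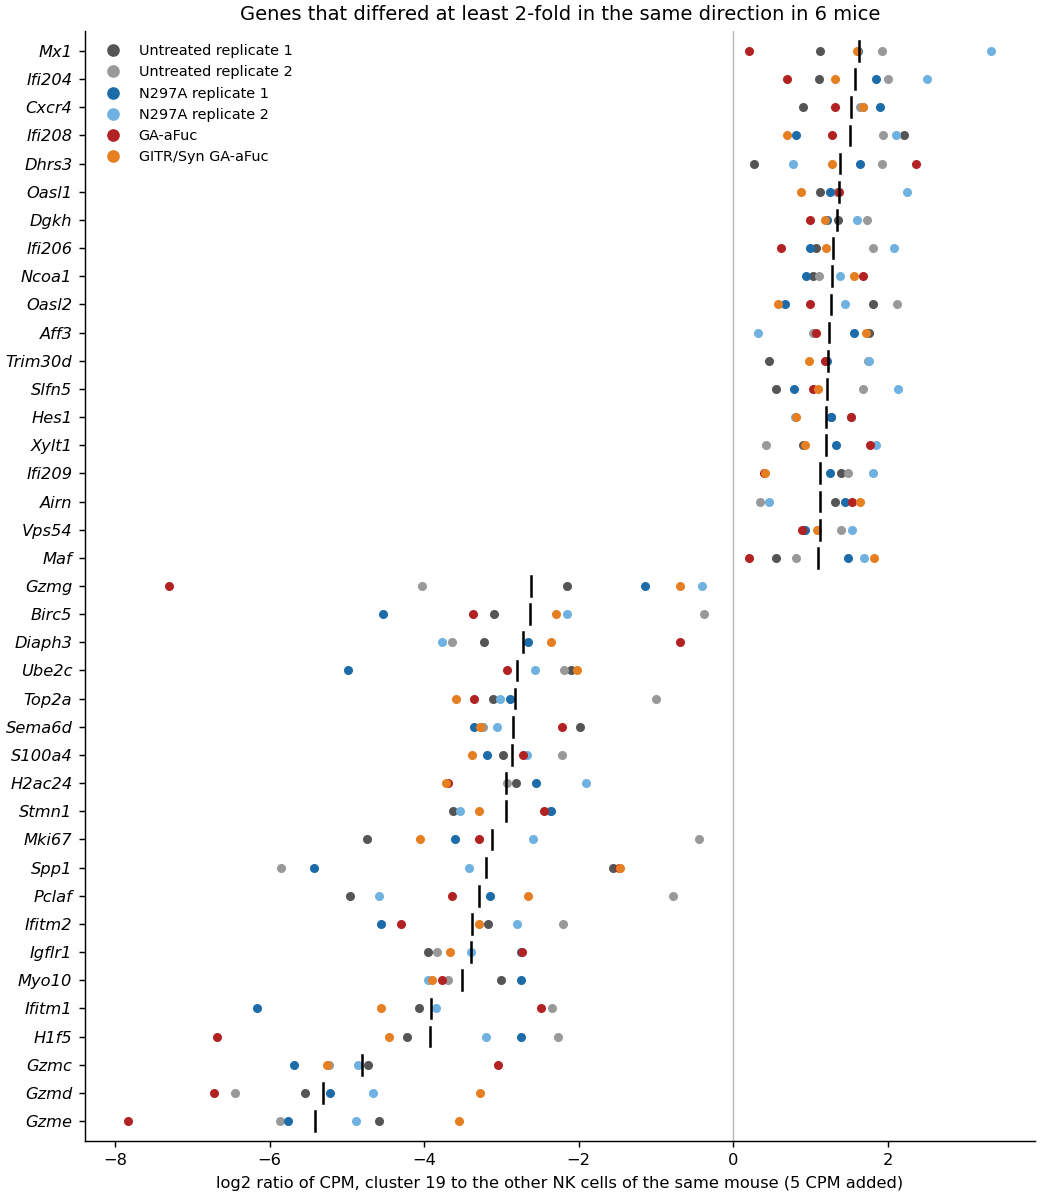
Log2 ratio of CPM between cluster 19 and the other NK cells of the same mouse for 19 of the 20 genes most higher and the 20 most lower among the 104 counted, with 1 point per mouse and a bar at the mean. The upper block includes Mx1, Ifi204 and Oasl1, and the lower block Gzmc, Gzmd and Mki67.

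Of the 20 leading higher genes, Ifi208, Ifi206 and Ifi209 of the Ifi200 cluster, Trim30d and Slfn5 had log2 ratios of 1.503, 1.30, 1.13, 1.22 and 1.21. Ncoa1, a coactivator of nuclear receptors, was even across mice at 141, 116, 122, 133, 139 and 144 CPM, and no value overlapped the other NK cells (52.2 CPM ± 9.93), while cluster 26 had 125 CPM ± 42.0. Hes1, a transcription factor induced by Notch, had 52.4 CPM ± 11.8 against 20.3 CPM ± 5.96, and 87.6 CPM in cluster 26. Dgkh, a diacylglycerol kinase, had a log2 ratio of 1.35 ± 0.27 (SD, n = 6), with 65.6 CPM in cluster 19 and 60.4 CPM in cluster 26, and Maf, a transcription factor of lymphocytes and macrophages, 1.09 ± 0.66. Among the leading lower genes Ifitm1, a relative of Ifitm2, had 18.6 CPM against 293 CPM, and Igflr1, a receptor of the tumour necrosis factor receptor type, 5.92 CPM against 104 CPM. The level of Ifitm1 was 895 CPM in cluster 48 and 107 CPM ± 97.1 in cluster 20.

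The interferon-gamma response, whose list overlaps the type I list, had 6 of 19 genes higher in 6 of 6 mice and 1 lower (Psmb8), with a median log2 ratio of 0.51. Irf1, a transcription factor of this response, had 269, 255, 256, 306, 208 and 239 CPM against 152 CPM ± 25.8 in the other NK cells, without overlap, and 292 CPM ± 65.1 in cluster 26. Nlrc5, which drives MHC class I genes, had a log2 ratio of 0.71 ± 0.42. Of 11 MHC class I genes 2 were higher, Nlrc5 and B2m, the latter by 0.17 ± 0.15, and 0 lower. Immediate early genes had 3 of 19 higher (Fosl2, Zfp36l1 and Tnfaip3) and 0 lower, heat shock genes 0 of 13 higher and 3 lower, and oxidative phosphorylation 2 of 18 higher and 2 lower, where 11.6% of all genes were higher and 8.54% lower.

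Among homing genes, Cxcr4, the receptor for Cxcl12, had 98.9, 217, 228, 142, 91.2 and 138 CPM in cluster 19 and 48 CPM ± 12.2 in the other NK cells. No cluster 19 value overlapped those of the other NK cells, and the log2 ratio was 1.52 ± 0.36 (SD, n = 6). Cluster 26 had 207 CPM ± 45.4 of Cxcr4, and cluster 19 was below it in 4 of 6 mice. Itga2, Itga4 and Itgb1 were higher too, with log2 ratios of 0.94, 0.82 and 0.55. In all, 5 of 16 chemokine receptor and adhesion genes were higher in 6 of 6 mice and 0 lower, with a list median of 0.16. Over all genes 11.6% were higher and 8.54% lower, with a median of 0.05. Against cluster 26 the same list ran the other way, with 0 of 18 higher and 4 lower, where 8.11% of all genes were lower.

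The list of cytokine receptors and their targets had 8 of 19 genes higher in 6 of 6 mice and 1 lower, with a median of 0.22. Among all genes 11.6% were higher and 8.54% lower. Set against cluster 26 the list ran the other way, with 0 of 19 higher, 6 lower and a median of -0.29. There, 5.17% of all genes were higher and 8.11% lower. The values that follow compare with the other NK cells together. Il18r1, a chain of the interleukin 18 receptor, had 159, 366, 256, 207, 174 and 113 CPM, against 96.9 CPM ± 7.42 in the other NK cells, a log2 ratio of 1.00 ± 0.62. Ifngr1, the ligand-binding chain of the interferon-gamma receptor, had a ratio of 0.74 ± 0.25 and Tgfbr1, a receptor for transforming growth factor beta, 0.83 ± 0.48. Bcl2, which guards against cell death, had 0.57 ± 0.27. Il2ra, the inducible high-affinity chain for interleukin 2, was the 1 gene lower than in the other NK cells, at 13.9 CPM against 28.1 CPM.

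Genes known to respond to transforming growth factor beta had 5 of 11 members higher in 6 of 6 mice and 0 lower, with a median log2 ratio of 0.49. Among all genes 11.6% were higher and 8.54% lower, with a median of 0.05. Smad7, its feedback inhibitor, stood at 519, 366, 476, 435, 360.3 and 396 CPM, against 262 CPM ± 41.8 in the other NK cells. Skil, Tgfbr1, Cd9 and Ctla2a were the rest of the 5. Set against cluster 26, the list had 1 of 11 members higher in 6 of 6 mice and 0 lower. There, 4 of 11 had a positive ratio and the median was -0.18, where all genes had -0.09. Tgfb1, the ligand gene, had 848 CPM ± 71.4 against 578 CPM ± 39.7 in the other NK cells.

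Of 17 genes for activating receptors and their adaptors, 8 were higher in 6 of 6 mice and 0 lower, with a median of 0.23. Among all genes 11.6% were higher and 8.54% lower. Klrb1c had a log2 ratio of 0.70 ± 0.29, Klra8 (Ly49H) of 0.85 ± 0.55 and the signalling chain Cd247 of 0.61 ± 0.36. Set against cluster 26, 0 of the 17 were higher and 2 lower, with a median of -0.15, where 5.17% of all genes were higher and 8.11% lower. Klrb1c had 645 CPM in cluster 26. Of 17 genes listed as inhibitory receptors or checkpoints, 1 was higher and 5 were lower than in the other NK cells. Klra4 was the 1 higher, at 0.96 ± 0.49, although it encodes Ly49D, an activating receptor. The 5 lower were Klra5, Lag3, Pdcd1, Ctla4 and Cd160. Ctla4, a checkpoint receptor best known on T cells, had 64.2 CPM in cluster 19, 149 CPM in cluster 20 and 9.72 CPM in cluster 26. Pdcd1 was low everywhere, at 1.39 CPM against 23.5 CPM.

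Transcription factor genes differed little as a list, with 3 of 26 higher, 1 lower and a median of 0.12. This was near the share of all genes, of which 11.6% were higher and 8.54% lower, with a median of 0.05. Bach2, a repressor that keeps lymphocytes from terminal differentiation, had 643, 747, 589, 629, 638 and 609 CPM in cluster 19, against 319 CPM ± 62.3 in the other NK cells and 814 CPM ± 209 in cluster 26. No value overlapped those of the other NK cells. Zeb2, a factor of late NK maturation, had a log2 ratio of 0.71 ± 0.52 and Runx3 of 0.48 ± 0.18. Rora was lower.

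Cell cycle genes were lower in cluster 19. Of 15 mitosis genes 10 were lower in 6 of 6 mice, with a median log2 ratio of -2.13, and of 16 DNA replication genes 9 were lower, with a median of -1.32. Over all genes 8.54% were lower and 11.6% higher, with a median of 0.05. Mki67, a mark of cycling cells, had 9.60 CPM in cluster 19 and 112 CPM in the other NK cells, and Top2a 21.9 CPM and 196 CPM. Both genes were concentrated in cluster 58, at 592 and 1019 CPM, and stood at 14.4 and 28.4 CPM in cluster 20 and 20.8 and 26.1 CPM in cluster 26. Against cluster 20 or 26 alone, 0 mitosis genes were lower in 6 of 6 mice, while 6 of 13 replication genes were lower than in cluster 20, where 7.38% of all genes were. H1f5, a histone of dividing cells, had a log2 ratio of -3.93 to all other NK cells and of 0.52 when only clusters 20 and 26 stood on the other side.

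Glycolysis and cytoskeleton genes were lower as well than in the other NK cells together. Of 19 glycolysis and hypoxia genes 9 were lower in 6 of 6 mice and 0 higher, with a median of -0.40. Among all genes 8.54% were lower and 11.6% higher. Ldha, which makes lactate, had 403, 525, 358, 422, 551 and 634 CPM, against 723 CPM ± 64.4 in the other NK cells, 775 CPM in cluster 20 and 357 CPM in cluster 26. Of 24 actin and cytoskeleton genes 12 were lower and 1 higher. S100a4, a calcium-binding protein of motile cells, had a log2 ratio of -2.86 ± 0.42, Lgals3 of -1.19 ± 0.48 and S100a6 of -1.05 ± 0.36. Of 9 tissue residency genes 4 were lower, led by Inpp4b (74.1 CPM against 319.8 CPM) and Tmem176b, and 0 higher. Myo10, an unconventional myosin, had 9.08 CPM ± 5.02 against 149 CPM ± 20.7. Spp1, which the macrophage list also holds, had 182 CPM ± 196 against 859.7 CPM, and varied widely among mice, from 8.13 to 495 CPM. Set against cluster 26, these lists were not lower. Glycolysis had 5 of 19 genes higher and 0 lower (median 0.34), and the cytoskeleton 2 of 24 higher and 1 lower (median -0.05). Tissue residency had 1 of 7 higher and 0 lower (median 0.57). Among all genes there, 5.17% were higher and 8.11% lower, with a median of -0.09.

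Readouts that are not gene levels were compared by mouse. The hashtag antibody, a surface stain, gave 1754, 1602, 1006, 1462, 2026 and 1605 UMIs per cell in cluster 19, and 2174, 1645, 1109.8, 1500.3, 2121 and 1620.4 in the other NK cells. It was lower in cluster 19 in 6 of 6 mice, by a mean of 0.10 on the log2 scale (log2 difference -0.10 ± 0.11, SD, n = 6; two-sided exact sign-flip permutation test, p = 0.03125, the smallest that 6 mice allow). Read per 1000 mouse-gene UMIs, the difference was 0.48 in the other direction. Against cluster 20 the log2 difference was -0.40 ± 0.16 and against cluster 26 it was 0.58 ± 0.14. Mouse-gene UMIs per cell differed by -0.77 ± 0.11 on the log2 scale from the other NK cells. At an equal depth of 2000 UMIs a cluster 19 cell held a median of 1118 genes, against 1088, a log2 difference of 0.04 ± 0.02.

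Among the cells of cluster 19, the genes with the largest spread relative to their level were Ccl5 and Gzma. The Fano factor, the variance of a gene's counts over their mean, was 1.06 in the median over 1815 genes after thinning to 2000 UMIs. Ccl5 had a median Fano factor of 10.8 over the 6 mice, with 74.8% of cells holding a UMI, a median of 3 UMIs and up to 63. Gzma had 8.18, with 97.6% of cells positive. Gzmc had 5.87, with 24.8% of cells positive, against 79.0% in cluster 20, 11.8% in cluster 26 and 3.02% in macrophages. Xcl1 followed with 5.45 and Gzmb with 4.99. Ccl4, another chemokine, had 4.36, but its highest value over mice was 127, from a mouse in which 1 thinned cell held up to 137 UMIs. The remaining genes of the 15 with the largest factors were Malat1, Tmsb4x, Kcnq5, AW112010, S100a6, Plac8, Ly6c2, Emb and 1 gene listed without a symbol.

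GITR itself (Tnfrsf18), the target of the antibodies, had 173, 178, 163, 146, 73.8 and 113 CPM in cluster 19 and 145 CPM ± 32.4 in the other NK cells. A Tnfrsf18 UMI was present in 26.7% of thinned cluster 19 cells, 24.0% of the other NK cells and 0% of macrophages. Of the human Fc gamma receptors, FCGR3A, the receptor through which human NK cells kill antibody-coated cells, had 124 CPM ± 68.7 in cluster 19, 89.3 CPM ± 48.2 in the other NK cells and 89.3 CPM in CD8 T cells. FCGR3B had 243 CPM ± 73.6, against 168 CPM in CD8 T cells, 3612 CPM in macrophages and 1787 CPM in free RNA. FCGR1A, FCGR2A and FCGR2B had means of 8.55, 32.7 and 39.3 CPM in cluster 19, against 222, 1065 and 345 CPM in macrophages. FCGR2C had 2 UMIs and FCGRT none. CD8 T cells showed levels near those of cluster 19 for FCGR3A, of which free RNA held 126 CPM. The part of free RNA in these human receptor levels was not tested.

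Cluster 19 held 28.3%, 33.3%, 36.4%, 29.9%, 20.6% and 27.0% of the NK cells of the 6 mice, with exact binomial 95% intervals from 14.0% to 28.6% for the lowest and from 27.4% to 46.1% for the highest. The mean share was 23.8% in both mice given an Fc-enhanced antibody (GA-aFuc or GITR/Syn GA-aFuc) and 32.0% in the other 4, a difference of -8.15 percentage points (two-sided exact permutation test, p = 0.133, where 0.0667 is the smallest this design allows). It was 33.1% with N297A and 30.8% in the Untreated mice (p = 0.667 by the same exact test, smallest 0.333). Neither comparison passed. Gzmc, Ccl5 and Itga2, which set the cluster apart, were themselves called different inside it in comparisons with 1 treated mouse. Cluster size and a shift of its border cannot be told apart. Intervals and limits from counts cover counting error only.

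For the treatments, UMIs of cluster 19 were summed per mouse and tested with edgeR's quasi-likelihood test and Benjamini-Hochberg adjustment over all genes tested, at an adjusted p of 0.05. The mice share 1 library. The p-values and SEs rest on an estimate of the spread between mice that edgeR shares across genes. With 2 residual degrees of freedom in the fit of 4 treatments, they do not measure each gene's own spread alone. Against Untreated, N297A had 3 genes higher (0.0577% of 5202) and 1 lower (0.0192%), and 244 (4.69%) had an unadjusted p under 0.05. Cxcl10, a chemokine induced by interferons that draws Cxcr3-bearing T and NK cells, stood at 38.9 and 91.6 CPM in the Untreated mice and at 646 and 521 CPM in the N297A mice. With GA-aFuc it was 52.1 CPM and with GITR/Syn GA-aFuc 50.3 CPM, so both N297A mice lay above the other 4. Cxcl10 rose by 3.27 on the log2 scale (SE 0.27), and the call held with DESeq2 (adjusted p = 3.25e-07) and with each mouse left out.

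The Cxcl10 UMIs were spread over cells: 159 UMIs in 17 of 40 cells of N297A replicate 1, at most 48 in a cell, and 121 UMIs in 18 cells of replicate 2, at most 35 in a cell. In the Untreated mice 9 and 11 cells held 11 and 19 UMIs. The other NK cells had 43.3, 81.3, 84.5, 62.3, 227 and 104 CPM, highest in the GA-aFuc mouse. The N297A effect was then tested for a difference between cluster 19 and the other NK cells. Of 7799 genes, 2 had a larger effect in cluster 19 (0.0256%), 0 a smaller one, and 305 (3.91%) an unadjusted p under 0.05. Cxcl10 was 1 of the 2, with a log2 difference of 3.01 (SE 0.35; edgeR adjusted p = 2.39e-06, DESeq2 adjusted p = 0.0132). The number of genes called in this test was 10 without Untreated replicate 1, 5 without Untreated replicate 2 and 1 without N297A replicate 1. Macrophages (519 to 756 CPM) and free RNA (759 CPM) held much Cxcl10. The 15 macrophage genes in cluster 19 summed to 1358 and 1554 CPM in the N297A mice and 1512 and 1364 CPM in the Untreated mice, which overlap. Of 12 macrophage genes in the test of the difference 0 passed, and 10 had a positive value with a median of 0.50; their part in the Cxcl10 result was not tested.

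Ikzf2 (Helios), a transcription factor of the Ikaros family, rose by 1.14 (SE 0.25; edgeR adjusted p = 0.0127), from 159 and 169 CPM to 341 and 357 CPM. Ifit1, an interferon-induced inhibitor of viral RNA, rose by 1.56 (SE 0.37), from 14.1 and 111 CPM to 154 and 172 CPM. Nsun2, an RNA methyltransferase, fell by 2.14 on the log2 scale (SE 0.51). These 3 calls were lost with DESeq2, with each gene's highest cell left out, and with the 4 Untreated and N297A mice alone. With a mouse left out, Ifit1 lost its call in 3 of 6 fits, and Ikzf2 and Nsun2 in 4 of 6 each. Over all settings the log2 change of Ifit1 ranged from 0.60 to 3.51. The number of genes called was 8 without Untreated replicate 1, and 2 without either N297A mouse. Of 26 type I interferon genes tested, 22 had a positive change and 1 passed, with a median of 0.43, where all genes had -0.00. The interferon sum was 4350 and 5813 CPM in the N297A mice and 3573 and 4655 CPM in the Untreated mice, which overlap.

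**Figure D4:**
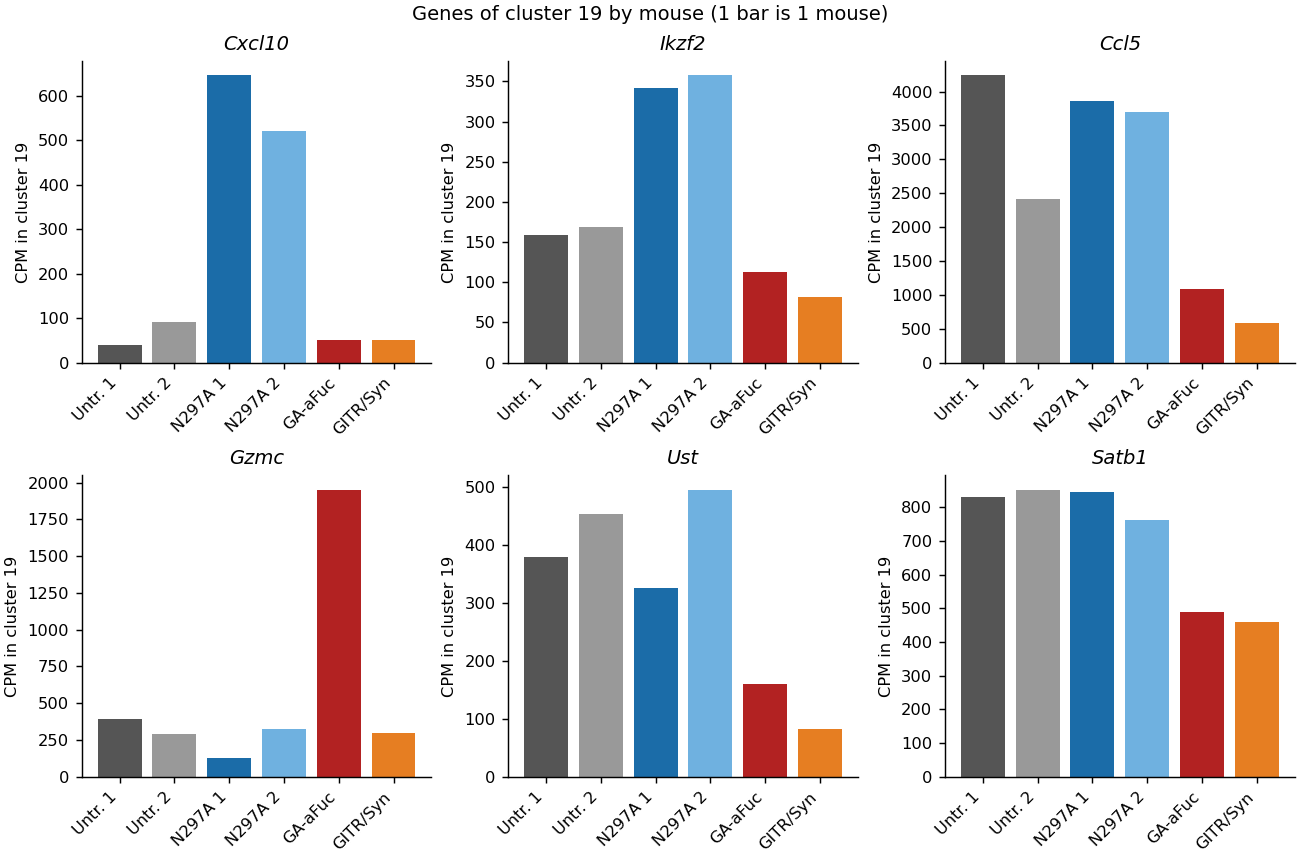
CPM of 6 genes in cluster 19, with 1 bar per mouse (Untr., Untreated; GITR/Syn, GITR/Syn GA-aFuc). Cxcl10 and Ikzf2 are highest in both N297A mice, Ccl5, Ust and Satb1 lowest in both Fc-enhanced mice, and Gzmc stands at 1953 CPM in the GA-aFuc mouse.

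In the GA-aFuc mouse 5 genes were higher (0.0961% of 5202) and 7 lower (0.135%) than in the Untreated mice, and 340 (6.54%) had an unadjusted p under 0.05. Ccl5 fell by 1.58 on the log2 scale (SE 0.25), to 1089.5 CPM from 4237 and 2409 CPM. This call was lost with DESeq2, with limma-voom (adjusted p = 0.859), without its highest cell (edgeR adjusted p = 0.733) and without the GITR/Syn GA-aFuc mouse (edgeR adjusted p = 0.128). Itga2 fell by 2.12 (SE 0.46), Ust, a sulfotransferase of glycan chains, by 1.32 (SE 0.30) and Klra4 by 1.10 (SE 0.25). Cmss1, AW112010 and Ppargc1a, a coactivator of mitochondrial genes, were also lower; Ppargc1a had 0 UMIs there, which allows up to 13.0 CPM, at least 4.91-fold lower than 63.9 CPM in the Untreated mice. Gzmc rose by 2.54 (SE 0.22), to 1953 CPM from 392 and 289 CPM. Of its 450 UMIs, 180 lay in 1 of 27 cells, and the call was lost without that cell.

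AA467197 rose by 1.64 (SE 0.35), Ly6a (Sca-1), an interferon-inducible surface protein, by 1.19 (SE 0.28), S100a6 by 0.75 (SE 0.19) and the ribosomal protein gene Rps12 by 0.52 (SE 0.13). With 1 treated mouse, DESeq2 called 0 genes. The count was 41 without Untreated replicate 1 and 7 without either N297A mouse. The 15 macrophage genes summed to 2266 CPM in cluster 19 of this mouse, the highest of the 6; their part in these differences was not tested.

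In the GITR/Syn GA-aFuc mouse 14 genes were higher (0.269% of 5202) and 12 lower (0.231%), and 447 (8.59%) had an unadjusted p under 0.05. Ccl5 fell by 2.44 (SE 0.28), to 590.5 CPM, the lowest of the 6 mice, and was the 1 gene that DESeq2 also called (adjusted p = 0.0133). The Ccl5 call was lost with limma-voom (adjusted p = 0.733) and with its highest cell left out (edgeR adjusted p = 0.283). Cluster 26 showed 11021, 10727.5, 12960, 10989, 7112 and 7558 CPM of Ccl5, also lowest in both Fc-enhanced mice. Gzma fell by 0.46 (SE 0.12), to 6470.4 CPM, and Ust by 2.27 (SE 0.37), to 81.7 CPM. The Gzma call was lost with DESeq2, with limma-voom, without its highest cell and in 4 of 5 fits with a mouse left out. Fam117b, Cdk14, Ipcef1, Crim1, Enox2 and Dennd4a were also called lower, with log2 changes from -3.66 (Enox2) to -0.69 (Dennd4a). St6galnac3, Gadd45b and Arhgap31 had 0 UMIs, which allows up to 18.8 CPM each, at least 4.48-fold, 3.33-fold and 3.84-fold lower than in the Untreated mice.

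On the higher side 10 of the 14 genes encode ribosomal proteins, led by Rpsa, which rose by 0.72 (SE 0.14). The others were Dbi, an acyl-CoA binding protein that rose by 1.23 (SE 0.32), Etfb by 1.46 (SE 0.38), the cytokine Mif by 0.93 (SE 0.24) and Dock9 by 1.72 (SE 0.44). Ribosomal proteins were picked as a group after their values were seen. Of 77 such genes tested, all 77 had a positive change in this mouse, with a median of 0.40, and all 77 in the GA-aFuc mouse, with a median of 0.26, and 74 with N297A, with a median of 0.14. These comparisons use the same Untreated mice. They made up 20.5%, 18.7%, 21.3%, 20.5%, 23.1% and 24.7% of cluster 19 UMIs. The count of called genes was 84 without Untreated replicate 1 and 5 without either N297A mouse.

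With both mice given an Fc-enhanced antibody set against the other 4, 9 genes were higher (0.203% of 4426) and 13 lower (0.294%), and 448 (10.1%) had an unadjusted p under 0.05. Median UMIs per cluster 19 cell were 7461 and 7515 in the Fc-enhanced mice and 5194 to 5769 in the other 4, without overlap. The part of this depth in the differences was not tested. Ust stood at 378, 453, 325 and 495 CPM in the Untreated and N297A mice and at 161 and 81.7 CPM in the Fc-enhanced mice, without overlap. It fell by 1.67 on the log2 scale (SE 0.23), and the call held in every setting and with each mouse left out, the highest adjusted p being 0.00118 (edgeR, DESeq2 or limma-voom). In cluster 26 Ust stood at 499, 706, 447, 680, 628 and 765 CPM, highest in the GITR/Syn GA-aFuc mouse. The other NK cells together had 134 to 182 CPM of Ust against 91.8 and 107 CPM. Satb1, a chromatin organiser of lymphocytes, had 815 to 1386 CPM against 1018 and 973 CPM in cluster 26. In the other NK cells together Satb1 had 442 to 573 CPM against 347 and 381 CPM. In cluster 19 Satb1 stood at 830.5, 853, 846 and 762 CPM against 491 and 459 CPM, and fell by 0.75 (SE 0.16). Its call held with DESeq2, with limma-voom, without the filter on low counts and without its highest cell, and was lost without the GITR/Syn GA-aFuc mouse (edgeR adjusted p = 0.0722).

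Ipcef1 fell by 1.61 on the log2 scale (SE 0.34). Also lower were St6galnac3, Nfkbia, Ifi209, Man1a, Gimap6, Mxd1, Btg1, Ms4a4b, H3f3b and AW112010. Nfkbia, an inhibitor of NF-kappa B and a target of it, fell by 0.96 (SE 0.23), and Ifi209, an interferon-inducible gene, by 0.92 (SE 0.24). Both calls were lost with DESeq2, with limma-voom and without the highest cell, and with a mouse left out in 4 of 6 fits for Nfkbia and 5 of 6 for Ifi209. The higher genes were Dbi (1.11, SE 0.23), Etfb, Mbtd1, Ranbp1 and the ribosomal protein genes Rps12, Rpsa, Rps18, Rps20 and Rpl41. DESeq2 called 12 genes. Without N297A replicate 1 the count was 7, and without N297A replicate 2 it was 11.

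Of 26 type I interferon genes tested in this comparison 0 passed and 0 had a positive change, with a median of -0.62, where all genes had 0.00. The interferon sums of 3247 and 2795 CPM in the Fc-enhanced mice lay below the 3573 to 5813 CPM of the other 4. Of 18 interferon-gamma response genes 0 passed, and 4 had a positive change, with a median of -0.33. Of 19 immediate early genes, which respond to stimulation within minutes to hours, 1 fell (Nfkbia) and 1 had a positive change, with a median of -0.31. Whether these differences were larger in cluster 19 than in the other NK cells was tested per gene. No gene passed with edgeR, DESeq2 or limma-voom, and 420 of 7066 (5.94%) had an unadjusted edgeR p under 0.05. In simulated counts this edgeR test found 15.6% of 2-fold and 66.0% of 4-fold changes, so real differences could be missed. With edgeR, 2 genes passed without either Untreated mouse and 6 without the GITR/Syn GA-aFuc mouse.

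The genes that separate clusters 20 and 26 were then read by treatment inside cluster 19. With N297A 392 of 777 such genes (50.5%) changed toward the cluster 20 level, with GA-aFuc 529 of 777 (68.1%), with GITR/Syn GA-aFuc 564 of 777 (72.6%), and in the Fc-enhanced comparison 565 of 741 (76.2%). The comparisons share control mice. Of the 22 genes called in the Fc-enhanced comparison, 15 were on this axis and all 15 changed toward cluster 20, where 16.7% of genes tested were on the axis. The median position of cluster 19 for genes higher in cluster 26 was 0.620, 0.621, 0.573, 0.590, 0.560 and 0.478, and for genes higher in cluster 20 it was 0.512, 0.511, 0.437, 0.596, 0.389 and 0.367. The GITR/Syn GA-aFuc mouse was lowest on both, and its 20 cells were the fewest. Cluster 19 cells were deepest in both Fc-enhanced mice (medians of 7461 and 7515 UMIs). Cluster 20 was deeper than cluster 26 (medians of 13251 and 4293 UMIs). The part of depth in this shift was not tested. Where the border of the cluster fell in each mouse and a change inside its cells cannot be told apart here.

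**Figure D5:**
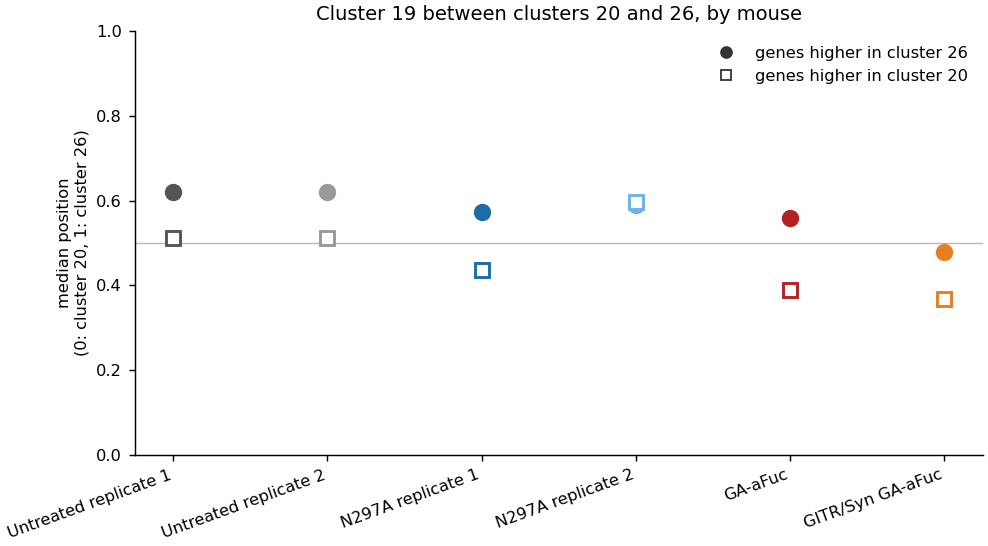
Median position of cluster 19 between cluster 20 (0) and cluster 26 (1) in each mouse, for genes higher in cluster 26 (filled circles) and in cluster 20 (open squares). Both medians are lowest in the GITR/Syn GA-aFuc mouse, at 0.478 and 0.367.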

How the data were processed

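Single-cell counts of 1 droplet library of tumour CD45+ cells were used, with a feature library for the hashtags. The authors deposited raw UMI counts per feature and barcode, made with Cell Ranger 9.0.0 per the file headers with human GRCh38 and mouse GRCm39 as the reference per the submitters' processing notes. Filtering of cells, demultiplexing, clustering and naming were not given in the sources used here; the deposited labels were taken as they are, and no doublets were called. A cell's mouse is its leading hashtag. Counts were summed per mouse (159187 to 282977 mouse-gene UMIs in cluster 19) and scaled to CPM. Genes were tested with edgeR 4.0.16 (TMM, filterByExpr, robust quasi-likelihood fit) in R 4.3.3, with DESeq2 1.42.0 and limma 3.58.1 (voom) as alternatives. Values per mouse were computed with Python 3.11.15, numpy 2.4.6 and scipy 1.17.1. Alternatives were other normalization, no filter on low counts, other level and fold limits, leaving out cells and leaving out each mouse.

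The text names the 20 genes with the largest ratio in each direction, up to 4 members of each list with the same direction in every mouse, and, for treatments, up to 10 called genes in each direction whose mice did not overlap. Genes had to reach 50 CPM on the higher side, or 20 CPM for lists and treatments. Between cells, the 15 genes with the largest Fano factor are named, and Tnfrsf18 and the human Fc gamma receptors in any case. Prf1, ribosomal protein genes and genes above or below both neighbour clusters were named after their values were seen. Members, lists and rules were chosen with earlier results of these data known. In simulated counts at these depths, 2-fold changes were found in 28.9% of genes for N297A, 10.4% for GA-aFuc, 10.5% for GITR/Syn GA-aFuc and 43.0% for the Fc-enhanced comparison, and 4-fold changes in 88.3%, 67.0%, 62.8% and 90.8%. The interactions for N297A and Fc found 8.60% and 15.6% of 2-fold changes, and 42.1% and 66.0% of 4-fold changes. Unchanged genes were called 3, 3, 1 and 4 times, and 3 and 8 times in the interactions for N297A and Fc. Shares of cells were compared with exact permutation tests over mice. Some genes of the lists are not reported here.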

Additional observations from a re-analysis of the deposited data

Results flagged for a closer look

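In 53 sets of 6 mice, 5 held a mouse that stood apart by Dixon's criterion; chance gives about 1 in 20. The log2 ratio of cluster 19 to the other NK cells stood apart for Oasl1 in N297A replicate 2, at 2.25, and for Gzmc in the GA-aFuc mouse, at -3.04. Top2a stood apart in Untreated replicate 2, at -1.004, where cluster 58 held 1 cell, and Ube2c in N297A replicate 1, at -4.98. UMIs per cell stood apart in the GITR/Syn GA-aFuc mouse, with a log2 difference of -0.56. The N297A effect differed between cluster 19 and the other NK cells for 2 genes by edgeR's interaction test. Cxcl10 differed by 3.01 on the log2 scale and is described above. Ccl1, a chemokine, differed by 10.4, but all 18 of its UMIs in the N297A mice of cluster 19 lay in 1 cell of replicate 1; it was named after its value was seen.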

How the results depend on the processing

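For single genes, 63 of 65 named treatment calls held with DESeq2 size factors, 44 without the filter on low counts, 38 with limma-voom and 29 without each gene's top cell; with DESeq2 itself 14 held and 47 did not, and none changed direction in these settings. With a mouse left out, 195 of these calls held and 157 did not, counted over all fits. A minimum of 2000 UMIs removed no cell, and the deepest 5% of NK cells held none of cluster 19, so neither could change tests within it. With DESeq2 the calls numbered 1 for N297A (4 in edgeR), 0 for GA-aFuc (12), 1 for GITR/Syn GA-aFuc (26), 12 for the Fc-enhanced mice (22) and 1 for the N297A interaction (2). Without each gene's top cell they numbered 1, 5, 19, 10 and 1. Limma-voom gave 11 for GITR/Syn GA-aFuc and 10 were called without the filter; unfiltered, the N297A interaction had 4 and the Fc interaction 2 (0 filtered). With the 4 Untreated and N297A mice alone N297A had 1, and without the deepest 5% of cells its interaction had 4. The 104 genes described became 200 at 20 CPM, 381 at 1.5-fold, 67 without the deepest 5% of cells and 44 against clusters 20 and 26 only, where 16 of the 40 leading genes moved by more than 1 SD and H1f5 turned to 0.52. Hashtag UMIs turned to 0.48 per 1000 UMIs and gave -0.12 as medians (exact p = 0.0625). UMIs per cell gave -0.58 as means. With each mouse left out in turn, calls ranged from 2 to 8 for N297A, 7 to 41 for GA-aFuc, 5 to 84 for GITR/Syn GA-aFuc, 7 to 30 for the Fc-enhanced comparison, 1 to 10 and 0 to 6 for the interactions, and 98 to 127 for the description; hashtags ranged from -0.119 to -0.0593 (exact p = 0.0625, the smallest that 5 mice allow) and UMIs per cell from -0.807 to -0.748. The share difference ranged from -11.4 to -4.94 percentage points for the Fc-enhanced mice and from -0.973 to 5.54 for N297A, where it was -0.013 of all annotated cells and -0.226 without Untreated replicate 1. The cause of these shifts was not tested, beyond the fewer mice in each fit. GA-aFuc and GITR/Syn GA-aFuc had 1 mouse each, so their calls rest on the spread of the other mice.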
